A study of Mus musculus with 6 samples.

Results

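miR-124 and miR-9 are microRNAs (miRNAs) of the nervous system, and their mature arms were measured in prefrontal cortex from a mouse model of postoperative neurocognitive disorder (PND). The members were the entries named mmu-miR-9-5p, mmu-miR-9-3p, mmu-miR-124-3p and mmu-miR-124-5p in the deposited list (the species prefix is left out from here on), which is 4 of 1189 entries. All 4 had reads in each of the 6 libraries, and no filter on low values removed any of them. Male wild type C57BL/6 mice were studied, with 3 mice in the PND group and 3 mice in the control (CON) group and 1 small RNA library per mouse. Their age was recorded as 18 months, whereas the sample names carry 17 months. The PND mice breathed 1.5% isoflurane for 30 min and then underwent an exploratory laparotomy that lasted 30 min under the same anesthetic, and lidocaine cream and povidone iodine were put on the wound afterwards. The CON mice had neither this anesthesia nor an operation, so the effect of isoflurane and that of surgery cannot be told apart. Both groups had been through the same behavioral tests, which ended with a maze test several days after the PND mice were operated on. Shortly after that test the mice of both groups were put under deep isoflurane anesthesia and perfused with saline, and the cortex was taken. Each sequenced mouse was drawn from a group of 13.

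A miRNA is cut from a hairpin precursor into a short duplex whose strands are called the 5p and the 3p arm. Usually a single arm, the dominant arm, is kept in an Argonaute protein, and it finds its target mRNAs mainly through its bases 2 to 8, which are called the seed. miR-124 is a hallmark of neurons. Its 3p arm represses non-neuronal transcripts, among them that of the splicing repressor Ptbp1, and so favors neuronal splicing. miR-9 is made in neural progenitors and in neurons. Its 5p arm is known to repress the transcript of the neuronal gene repressor Rest, and its 3p arm that of the Rest partner Rcor1, so both arms of this hairpin have known targets. miR-124 and miR-9 together can help to turn fibroblasts into neurons in culture.

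The mature sequences of miR-9 are shown here because the arms are compared with each other throughout. They were taken from RefSeq on GRCm38.p6, whose table held 2 of the 4 members, and the seed is in capitals.

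mmu-miR-9-5p: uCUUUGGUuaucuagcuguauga
mmu-miR-9-3p: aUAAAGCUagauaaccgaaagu

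The 5p arm is 23 bases long and starts with U, and the 3p arm is 22 bases long and starts with A. The 2 seeds differ, and among the 1679 mature names of the RefSeq table each seed belonged to 1 name only. Bases 6 to 17 of the 5p arm are exactly complementary to bases 5 to 16 of the 3p arm. No sequence is printed for miR-124.

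Each arm of miR-9 is encoded by 3 genes. Their hairpins are shown to make clear what the reads can and cannot tell apart, with the 5p and 3p arms in capitals.

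Mir9-1: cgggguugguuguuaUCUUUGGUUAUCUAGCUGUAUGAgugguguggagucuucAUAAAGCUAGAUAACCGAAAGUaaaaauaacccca
Mir9-2: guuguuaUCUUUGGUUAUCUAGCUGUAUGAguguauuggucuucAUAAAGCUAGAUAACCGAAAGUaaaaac
Mir9-3: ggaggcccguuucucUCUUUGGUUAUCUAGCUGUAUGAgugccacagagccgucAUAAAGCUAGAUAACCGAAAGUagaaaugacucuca

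The arms are identical in all 3 hairpins, which differ in the bases around and between the arms. The mature reads therefore sum over the 3 genes, and a change in any single gene could not be seen. On GRCm38.p6, Mir9-1 lies on the plus strand at chr3:88215598-88215686, in an intron of the long non-coding RNA gene Gm3764. The miRNA gene Gm25641 is annotated on the opposite strand there. Mir9-2 lies on the plus strand at chr13:83738814-83738885, in an exon of the long non-coding RNA gene C130071C03Rik. Mir9-3 lies on the plus strand at chr7:79505264-79505353, in an intron of its host gene Mir9-3hg. The arms of miR-124 are likewise attributed to 3 genes, Mir124a-1 on chromosome 14, Mir124a-2 on chromosome 3 and Mir124a-3 on chromosome 2, whose reads were not separated in the files.

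Levels are given as CPM, the reads of an entry per 1000000 reads of its library on all entries. The libraries held between 14849461 and 19471226 reads. CON mouse 1 and CON mouse 2 stood apart from the other libraries over the 361 entries with a mean of at least 10 CPM. Their mean Euclidean distance to the others on the log2(CPM + 1) scale was 11.8 and 12.4, against 6.75 to 8.58 for the remaining 4. Results are therefore also given without CON mouse 1 or CON mouse 2 where this matters. In CON mouse 1, 8 miRNAs known as markers of epithelium or olfactory tissue summed to 1646 CPM, against 67.0 to 198 CPM in the other libraries. In CON mouse 2, miR-128-3p, the most abundant entry in all 6 libraries, took 29.2% of the reads, against 17.6% to 23.2% in the others. The libraries held reads of all 15 other neuron-enriched miRNAs looked for, which together made up 273625 to 357330 CPM, most of it miR-128-3p with a mean of 222310.0 CPM. These markers do not tell the cortex from other brain regions.

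miR-9-5p was by far the most abundant member. It reached 75928, 87444 and 96143 CPM in PND mice 1 to 3 and 83295, 74051 and 85333 CPM in CON mice 1 to 3. It was ranked 2 in every library, behind miR-128-3p, and took 7.41% to 9.61% of the reads. The highest level was found in PND mouse 3 and the lowest in CON mouse 2, and the groups overlapped.

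miR-124-3p, the dominant arm of miR-124, had 5240.3, 5784 and 6178 CPM in the PND libraries and 5924, 4018 and 4758 CPM in the CON libraries. Its rank lay between 29 and 34. Again PND mouse 3 was highest and CON mouse 2 lowest, and the level in CON mouse 1 exceeded those in PND mice 1 and 2.

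miR-9-3p, the minor arm of miR-9, had 4730.2, 5425 and 5331 CPM in the PND libraries and 5149, 4181 and 4446 CPM in the CON libraries. Although it is the minor arm of its hairpin, it stood next to the dominant arm of miR-124, with ranks between 32 and 33. PND mouse 2 was highest, CON mouse 2 was lowest, and CON mouse 1 lay above PND mouse 1.

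miR-124-5p, the minor arm of miR-124, had 204, 226 and 268 CPM in the PND libraries and 212, 147 and 182 CPM in the CON libraries. It was the least abundant member, ranked between 144 and 157, and still rested on 2176 to 4755 reads per library. PND mouse 3 was highest and CON mouse 2 lowest, while CON mouse 1 lay between PND mice 1 and 2. The levels of the 4 arms are shown in the plot of CPM by library.

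**Figure D1:**
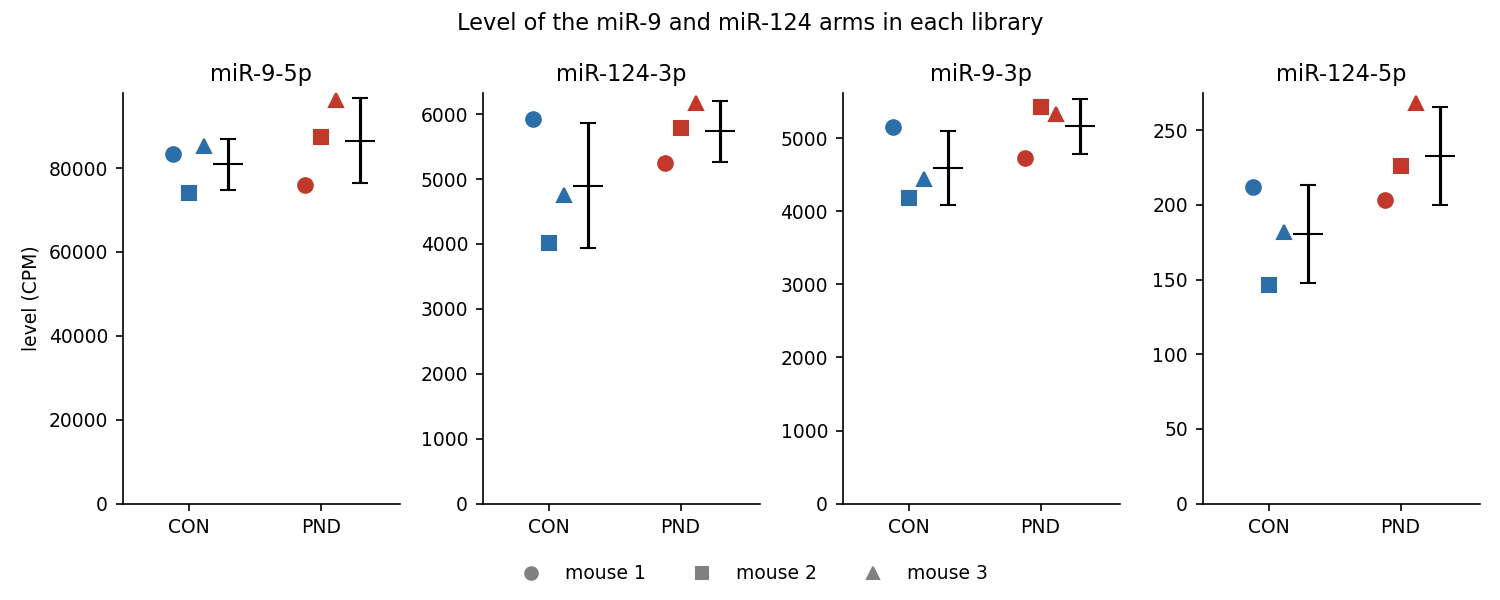
Level in CPM (y axis, from 0) of miR-9-5p, miR-124-3p, miR-9-3p and miR-124-5p in the CON and PND groups (x axis). Each symbol is 1 mouse and the bar beside each group is the mean with the SD (n = 3). CON mouse 2 was the lowest library for all 4 arms, and the groups overlapped in each panel.

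The order of the members was the same in 5 of 6 libraries. miR-9-5p exceeded miR-124-3p by 3.99 ± 0.16 on the log2 scale (SD, n = 6 libraries, higher in 6 of 6), and miR-9-3p exceeded miR-124-5p by 4.58 ± 0.17 (SD, n = 6, higher in 6 of 6). Both differences had the smallest p that an exact sign-flip permutation test of 6 libraries allows, 0.0313 (two-sided). Any difference of the same sign in 6 of 6 libraries gives this p. The pairs were neighbors in the order of level in these same libraries, so the p is descriptive only. miR-124-3p exceeded miR-9-3p by only 0.12 ± 0.10 (SD, n = 6), in 5 of 6 libraries (exact sign-flip permutation test, two-sided, p = 0.0625), so the difference between these neighbors did not pass the test. The exception was CON mouse 2, where miR-9-3p was higher. Reads of different sequences are not equally well captured by small RNA libraries, so these orders are of reads and not of molecules.

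Compared with the CON group, the mean level was 1.07 times as high in the PND group for miR-9-5p, 1.17 times for miR-124-3p, 1.12 times for miR-9-3p and 1.29 times for miR-124-5p. None of these differences passed the test, and 4 of 4 members had overlapping groups, whereas the groups did not overlap for 9.92% of all entries. In bulk tissue, fewer cells of a type and less of the miRNA per cell cannot be told apart.

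For miR-9-5p the group levels were 86505 ± 10140.0 CPM in PND and 80893 ± 6013 CPM in CON (SD, n = 3 each). limma on log2(CPM + 1) gave a log2 change of 0.09 with a standard error of 0.11 and a 95% interval of -0.16 to 0.34 (adjusted p = 0.768). The sign of this difference depended on the scaling, being positive on CPM and negative, at -0.030, with TMM factors.

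For miR-124-3p the group levels were 5734 ± 471 CPM in PND and 4899.9 ± 961 CPM in CON (SD, n = 3 each). The log2 change was 0.24 with a standard error of 0.15 and an interval of -0.10 to 0.59 (limma, adjusted p = 0.768). It was 0.11 without CON mouse 2 and 0.39 without CON mouse 1, so the CON libraries that stood apart pulled it in opposite directions.

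miR-9-3p had 5162 ± 377 CPM in PND and 4592 ± 500.4 CPM in CON (SD, n = 3 each), a log2 change of 0.17 with a standard error of 0.11 and an interval of -0.08 to 0.43 (limma, adjusted p = 0.768). It was 0.11 without CON mouse 2. The minor arm thus lay between its dominant arm and the arms of miR-124.

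The difference was widest for miR-124-5p, with 233 ± 32.9 CPM in PND and 180.2 ± 32.8 CPM in CON (SD, n = 3 each). The log2 change was 0.37 with a standard error of 0.17, an interval of -0.02 to 0.77 and an unadjusted p of 0.0596 from limma (adjusted p = 0.768). Without CON mouse 2 it was 0.23, and without CON mouse 1 it was 0.50. A change beyond 2-fold, the limit used for differential expression in this study, lay outside the interval for each of the 4 arms.

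By limma, 0 of the 4 members reached an unadjusted p of 0.05, against 61 of all 1189 entries (5.13%). After adjustment 0 members were called, against 5 entries (0.421%). edgeR's quasi-likelihood test and DESeq2 on the recovered reads also gave 0 of 4 at an unadjusted p under 0.05. Over all 1189 entries the counts were 50 with edgeR and 28 with DESeq2. When CON mouse 1 was left out, limma gave an unadjusted p of 0.0233 for miR-124-3p, 0.0299 for miR-124-5p and 0.0437 for miR-9-3p, and none of the members was called after adjustment (adjusted p = 0.570). This setting also raised the count over all 1189 entries from 61 to 91.

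The positive sign of the changes was shared by most abundant entries. Of the 361 entries with a mean of at least 10 CPM, 286 had a log2 change above 0 and 75 below 0, with a median of 0.14, and the members' median was 0.21. The largest single share of each total belonged to miR-128-3p, which had 199530 ± 29289 CPM in PND and 245091 ± 41340 CPM in CON (SD, n = 3 each). With the reads of miR-128-3p left out of the total, the log2 changes were 0.01 for miR-9-5p, 0.16 for miR-124-3p, 0.09 for miR-9-3p and 0.29 for miR-124-5p. TMM factors lowered the change of every member by 0.12 and DESeq2 size factors by 0.15. All 4 changes were then nearer to 0 and that of miR-9-5p was below it.

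**Figure D2:**
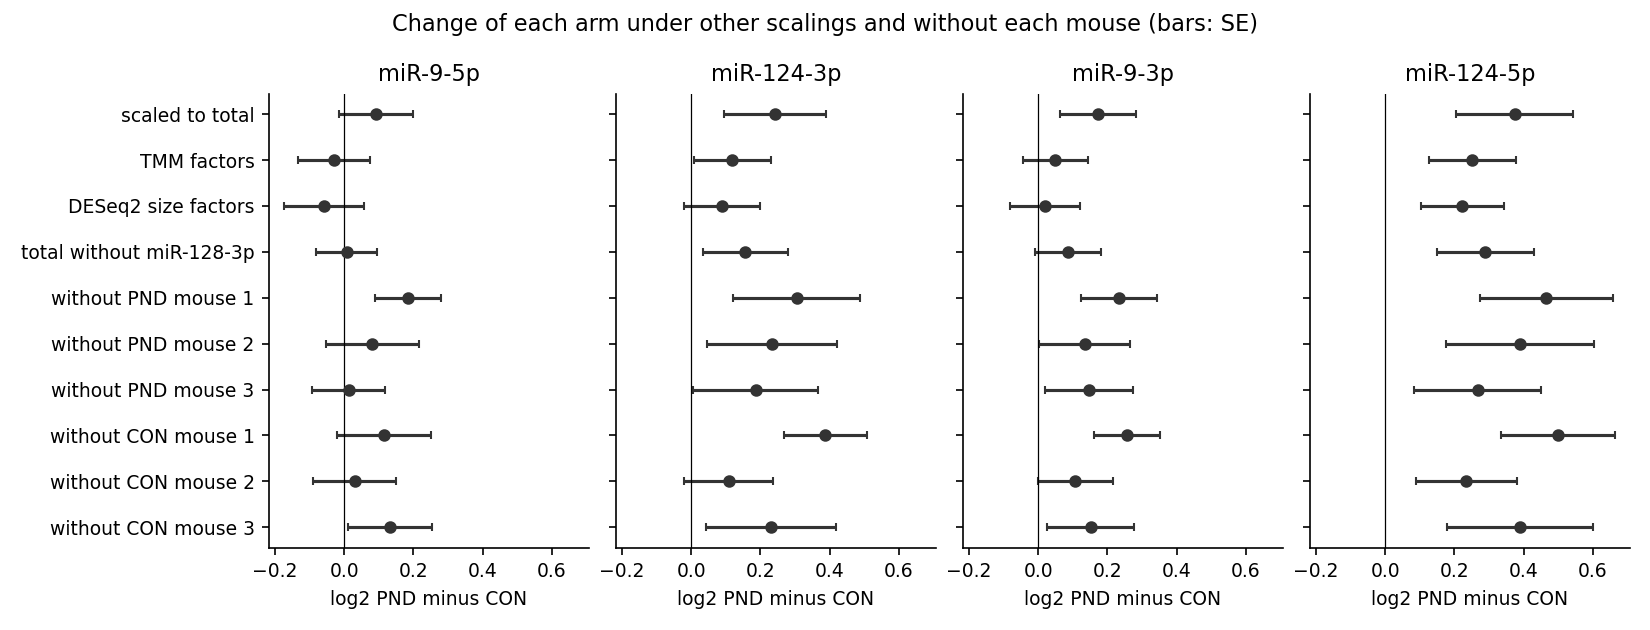
Difference in log2(CPM + 1) between PND and CON (x axis) for each arm, with CPM as deposited, with other scalings and without each mouse (y axis). Points are limma estimates and bars are standard errors. The value of miR-9-5p crossed 0 with TMM factors and DESeq2 size factors, and those of the other 3 arms stayed above 0 in every setting shown.

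All 4 members were low in CON mouse 2 and high in PND mouse 3, and they did not move together in every library. In CON mouse 2 the members lay below their mean over the 6 libraries by 0.17 (miR-9-5p), 0.39 (miR-124-3p), 0.22 (miR-9-3p) and 0.47 (miR-124-5p) on the log2 scale, and miR-128-3p lay above its mean by 0.41. In PND mouse 3 the members lay above their mean by 0.21, 0.23, 0.14 and 0.40 in the same order, and miR-128-3p lay below by 0.31. In CON mouse 3, miR-9-5p lay above its mean by 0.03, while miR-124-3p, miR-9-3p and miR-124-5p deviated by -0.14, -0.13 and -0.16. In CON mouse 1 the deviation was -0.0014 for miR-9-5p and 0.17, 0.08 and 0.06 for the other 3 in the same order. PND mouse 1 was the PND library with the lowest level of each arm. The part of miR-128-3p in these shifts was not tested beyond the rescaling given above. miR-124-5p and miR-124-3p had a larger spread within groups than the arms of miR-9, with an SD of 0.24 and 0.22 against 0.14 for miR-9-5p and 0.13 for miR-9-3p. The median of the 361 abundant entries was 0.19.

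**Figure D3:**
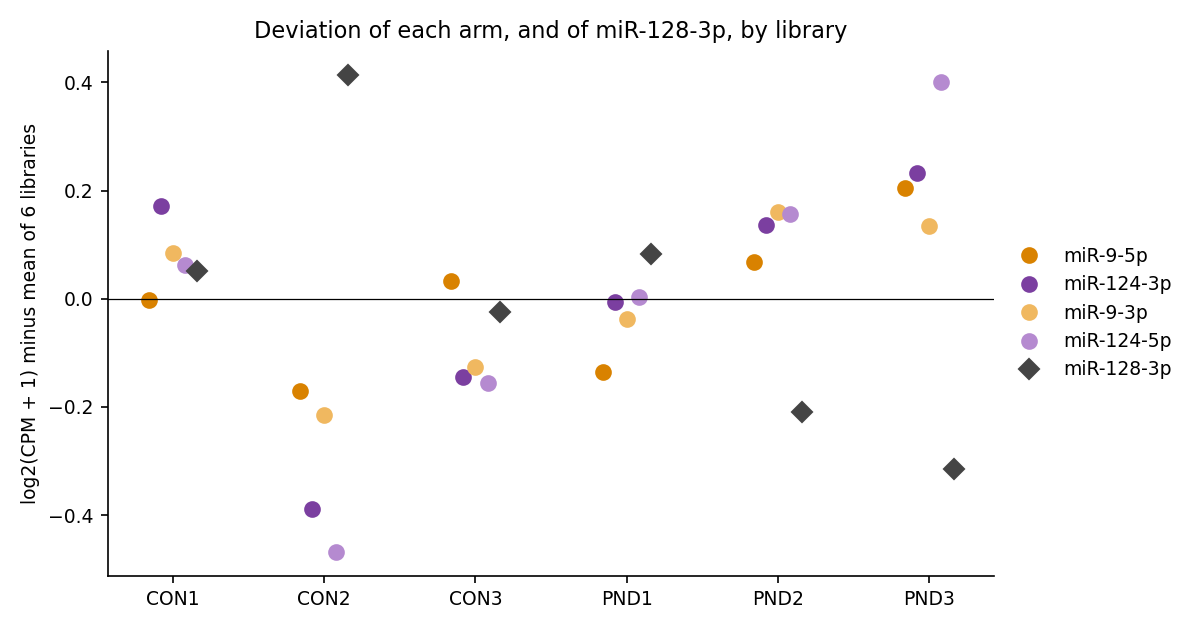
Deviation of log2(CPM + 1) from the mean of the 6 libraries (y axis) in each library (x axis) for the 4 arms and for miR-128-3p. In CON2 all 4 arms lay below 0 and miR-128-3p lay 0.41 above it, whereas in PND3 all 4 arms lay above 0 and miR-128-3p lay 0.31 below it.

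Ratios between arms do not depend on how a library is scaled. For miR-124 the ratio of 3p to 5p was 25.7, 25.6 and 23.0 in the PND libraries and 27.9, 27.4 and 26.1 in the CON libraries. Every PND library lay below every CON library, with 24.8 ± 1.53 in PND and 27.2 ± 0.93 in CON (SD, n = 3 each). The exact permutation test gave p = 0.1 (two-sided), the smallest that 3 mice against 3 allow. The groups did not overlap for 8 of the 86 hairpin names whose arms both averaged at least 10 CPM (9.3%), so such a separation was not rare. In limma over these 86 ratios the log2 difference was -0.13 with a standard error of 0.13 and an interval of -0.44 to 0.17 (adjusted p = 0.650). This standard error draws on the spread of all 86 ratios, whereas the SD within groups of the log2 ratio of miR-124 alone was 0.07. PND mouse 3 had the lowest ratio, and without it the difference was -0.08.

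In other terms, miR-124-5p took 3.74% of the reads of its hairpin in PND mouse 1 (95% Wilson interval 3.63% to 3.86%), 3.77% in PND mouse 2 (3.65% to 3.88%) and 4.16% in PND mouse 3 (4.05% to 4.28%). In the CON libraries it took 3.46% (3.34% to 3.57%), 3.52% (3.38% to 3.67%) and 3.69% (3.56% to 3.82%). The intervals cover counting error only, since the study describes no molecular identifiers. The intervals of CON mice 2 and 3 overlapped those of PND mice 1 and 2, and that of PND mouse 3 lay above all others.

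For miR-9 the dominant arm was the 5p arm. The ratio of 5p to 3p was 16.1, 16.1 and 18.0 in the PND libraries and 16.2, 17.7 and 19.2 in the CON libraries. The groups overlapped, with 16.7 ± 1.13 in PND and 17.7 ± 1.51 in CON (SD, n = 3 each). The log2 difference was -0.08 with a standard error of 0.11 and an interval of -0.34 to 0.18 (limma, adjusted p = 0.794). It was nearest to 0, at -0.02, without CON mouse 3, which had the highest ratio.

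miR-9-3p took 5.86%, 5.84% and 5.25% of the reads of its hairpin in the PND libraries and 5.82%, 5.34% and 4.95% in the CON libraries. With 62083 or more reads of the minor arm behind each value the Wilson intervals were narrow, for example 5.22% to 5.29% in PND mouse 3 and 4.92% to 4.99% in CON mouse 3. The intervals of PND mice 1 and 2 and CON mouse 1 overlapped, and PND mouse 3 and CON mice 2 and 3 each lay outside those of the other mice of their own group. Neither arm ratio passed the test, while in limma 4 of the 86 ratios (4.65%) reached an unadjusted p of 0.05 and 0 (0%) were called after adjustment.

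**Figure D4:**
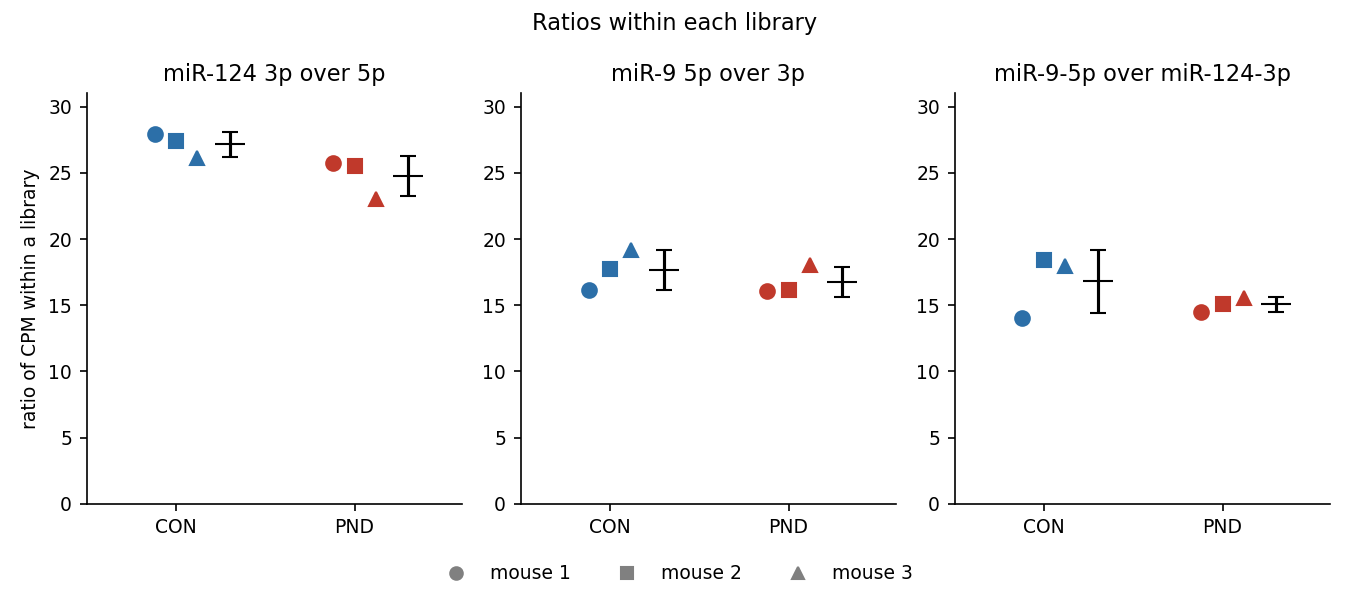
Ratio of CPM values within a library (y axis, from 0) for miR-124 3p over 5p, miR-9 5p over 3p and miR-9-5p over miR-124-3p in the CON and PND groups (x axis). Each symbol is 1 mouse and the bar beside each group is the mean with the SD (n = 3). The groups did not overlap for the miR-124 ratio, at 23.0 to 25.7 in PND and 26.1 to 27.9 in CON, and overlapped for the other ratios.

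Among the 86 hairpin names the dominant arm was the 3p arm in 44 and the 5p arm in 42, with a median excess of 5.57-fold over the minor arm. miR-124 was ranked 26 and miR-9 was ranked 29 by the size of this excess, at 25.9-fold and 17.2-fold (geometric means over 6 libraries). In this order miR-124 stood between miR-99b (30.5-fold) and miR-1843a (22.3-fold), and miR-9 stood between miR-30b (21.0-fold) and miR-92b (15.7-fold). Their arm ratios also varied little between mice. The SD of the log2 ratio within groups was 0.07 for miR-124, the fifth lowest of 86, and 0.11 for miR-9, ranked 15 from the lowest, against a median of 0.18. Both hairpins have many reads, and among the 30 names whose arms both averaged at least 100 CPM, miR-124 was ranked 3 and miR-9 was ranked 8 from the lowest, with a median of 0.19.

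**Figure D5:**
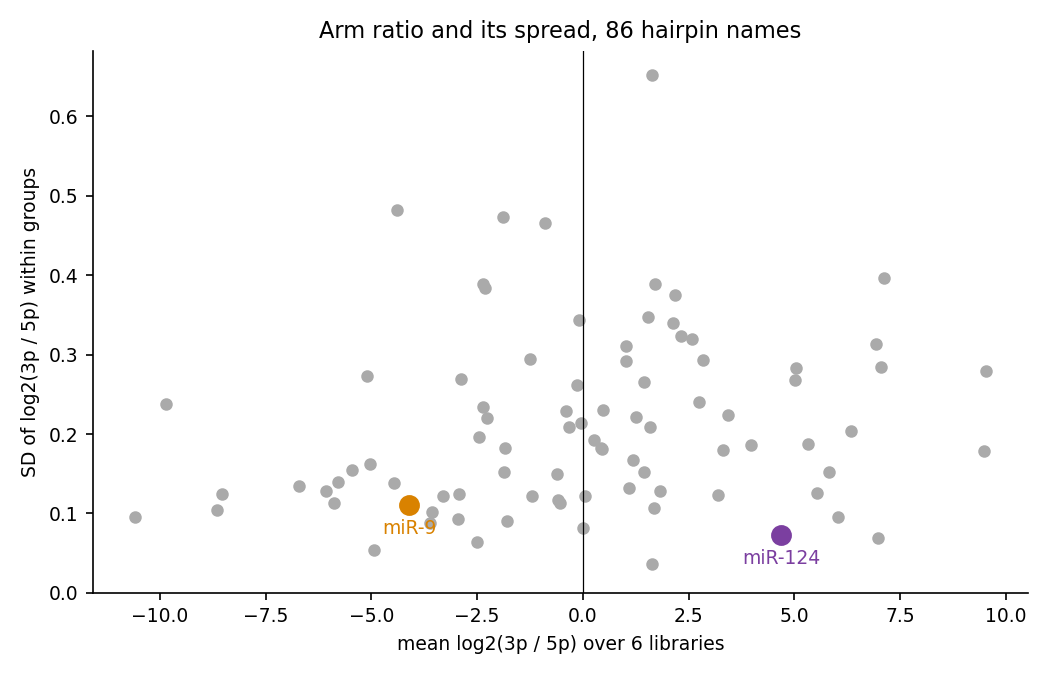
Mean log2 ratio of 3p to 5p over the 6 libraries (x axis, above 0 where the 3p arm dominates) and its SD within groups (y axis) for the 86 hairpin names with both arms averaging at least 10 CPM. miR-124 had an SD of 0.07 and miR-9 one of 0.11, both below the median of 0.18.

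The dominant arms of miR-9 and miR-124 were also compared with each other within each library. The ratio of miR-9-5p to miR-124-3p was 14.5, 15.1 and 15.6 in the PND libraries and 14.1, 18.4 and 17.9 in the CON libraries. CON mouse 1 was lowest and lay apart from the other CON mice, and the groups overlapped, with 15.1 ± 0.54 in PND and 16.8 ± 2.39 in CON (SD, n = 3 each). The log2 difference was -0.15, and the two-sided exact permutation p was 0.4. Without CON mouse 1 it was -0.27, and without CON mouse 2 it was -0.08. The minor arms gave 23.2, 24.0 and 19.9 for miR-9-3p over miR-124-5p in the PND libraries and 24.3, 28.5 and 24.4 in the CON libraries, a log2 difference of -0.20 without overlap (two-sided exact permutation p = 0.1, the lowest that this design allows). The values of PND mouse 2 and CON mouse 1 were close, at 24.0 and 24.3. For comparison, the groups did not overlap for 9.3% of the arm ratios of the 86 hairpin names and for 9.92% of all entries. The ratio of the minor arms shares miR-124-5p with the arm ratio of miR-124, so these separations are not independent.

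The entries whose levels followed each member most closely over the 6 libraries were sought among the other 360 entries with a mean of at least 10 CPM. Likeness was measured as the root mean square difference of log2(CPM + 1) after the mean of each entry was removed, in log2 units. Whether the closest of 360 entries over 6 libraries share any regulation with a member was not tested. miR-9-5p was most like miR-30c-5p (0.04) and miR-379-5p (0.05), followed by miR-1839-3p, miR-1193-3p and miR-146a-5p (0.06 to 0.07). miR-124-3p was most like miR-326-3p (0.03), miR-376c-3p (0.04), miR-339-5p, miR-487b-3p and miR-425-5p (0.05 to 0.06). miR-9-3p was most like miR-1193-3p, miR-425-3p, miR-16-5p and miR-31-5p (each 0.05) and an entry without a miRBase name. miR-124-5p was most like miR-107-3p (0.04), miR-708-5p, miR-376c-3p, miR-194-5p and miR-3535 (0.06 each). No member was among the 5 entries closest to another member. The arms of miR-124 differed by 0.09 and those of miR-9 by 0.10. The partner arm was in place 20 of 360 for miR-124-5p, 32 for miR-124-3p, 27 for miR-9-5p and 45 for miR-9-3p. Between the hairpins, miR-124-3p and miR-9-3p were as close as partner arms, with a difference of 0.09 and places 34 and 32. The other differences between the hairpins were larger, at 0.15 for miR-9-5p and miR-124-3p, 0.15 for miR-9-3p and miR-124-5p and 0.18 for miR-9-5p and miR-124-5p. miR-124-5p was in place 195 for miR-9-5p and in place 153 for miR-9-3p, and miR-9-5p was in place 102 for miR-124-3p.

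The other neuron-enriched miRNAs, 15 names from a list chosen with earlier results of these data known, gave a similar picture by the sign of their changes. Their sum, most of it miR-128-3p, did not, at 273625 to 315567 CPM in PND and 303631 to 357330 CPM in CON. Of the 15, 12 had a log2 change above 0 and 3 below 0, with a median of 0.18, and 0 passed an unadjusted p under 0.05 in limma. Among all 361 entries with a mean of at least 10 CPM, 286 had a change above 0, with a median of 0.14. The most abundant were miR-128-3p, with a change of -0.29 (standard error 0.14), miR-127-3p of the Dlk1-Dio3 region with 0.18 (0.09), miR-7a-5p with 0.33 (0.25) and miR-218-5p with 0.25 (0.18). All had an adjusted p of 0.768 in limma. The values of the members, 0.09 to 0.37, lay within the range of this list, which ran from -0.29 to 0.93.

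Markers of other cells moved as follows in the same libraries, where 286 of the 361 abundant entries had a change above 0. The 4 oligodendrocyte miRNAs summed to 2127 to 2455 CPM in PND and 2027 to 2223 CPM in CON, with all 4 changes above 0 and none passing the test. The 6 markers of microglia and leukocytes summed to 1306 to 1510 CPM (PND mouse 1 and PND mouse 3) and 1364 to 1471 CPM in CON, with 4 of the 6 changes above 0 and 2 below 0. Among them only miR-142a-5p, a scarce entry with a mean of 1.66 CPM and a log2 change of 0.51, had an unadjusted p under 0.05 (limma), and miR-223-3p and miR-146a-5p had changes of -0.23 and -0.0090. The endothelial markers summed to 13326 to 13992 CPM in PND and 11991 to 14372 CPM in CON, and those of mural cells to 8727 to 9898 CPM in PND and 6689 to 9670 CPM in CON, where 1 of 2, miR-145a-5p, had an unadjusted p of 0.0489. The 3 markers of red blood cells summed to 47.0 to 99.5 CPM in PND and 31.9 to 54.5 CPM in CON, and the 2 of choroid plexus to 764 to 795 CPM in PND and 585 to 926 CPM in CON. For the 8 markers of epithelium or olfactory tissue all changes were below 0, with CON mouse 1 highest, and none passed the test. No marker of any of these lists was called after adjustment in limma, and 0 of them lacked reads in all libraries. The part of these cells in the levels of miR-124 and miR-9 was not tested.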

How the data were processed

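Small RNA from the prefrontal cortex of 3 PND and 3 CON mice was sequenced by the authors. According to their methods the NEBNext small RNA kit was used, whereas the labels name a VAHTS total RNA kit. Reads were filtered with fastx, aligned with Bowtie and assigned by miRBase position. The submitters' processing notes name Bowtie 0.12.2 and the builds mm8 and mm9, and how reads with more than 1 match were counted is not given in the sources used here. The authors deposited CPM values, which sum to 1000000 per library within rounding. Whole reads were recovered for 100% of the values (tolerance 0.1 reads), with 14849461 to 19471226 reads per library. A mark of 3 reads, set here and not a limit of the deposited values, corresponds to 0.154 to 0.202 CPM. Values below it were not left out of the main fits.

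limma 3.58.1 with trend in R 4.3.3 compared PND with CON on log2(CPM + 1) over all 1189 entries, with Benjamini-Hochberg adjustment over all entries, and in the same way to the log2 arm ratios of 86 hairpin names. Single values were compared by exact permutation tests. The chi-square statistic between libraries of the same group was 120 to 651 times its degrees of freedom, so no library was a copy of another in its group. The fits were tested on simulated data. edgeR 4.0.16, DESeq2 1.42.0 and limma-voom on the recovered reads were alternatives. The named miRNAs are the members, the 5 entries most like each, the hairpins next to them by arm ratio and marker lists. The members and lists were chosen with earlier results of these data known. Positions and sequences are those of RefSeq GRCm38.p6 and GENCODE M21.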

Additional observations from a re-analysis of the deposited data

How the results depend on the processing

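In the settings tried, 0 of the 4 members had an adjusted p under 0.05, which lay between 0.570 and 0.988. miR-9-5p changed sign, to -0.030 with TMM factors, -0.059 with DESeq2 size factors, -0.029 with limma-voom, -0.027 with edgeR's quasi-likelihood test and -0.058 with DESeq2 on the recovered reads. These settings scale the libraries differently from CPM, which lowered the change of all members. The other members kept a positive change in the 11 other settings and in the 6 that left out a mouse. With each mouse left out the log2 change lay between 0.01 and 0.18 for miR-9-5p, 0.11 and 0.39 for miR-124-3p, 0.11 and 0.26 for miR-9-3p, and 0.23 and 0.50 for miR-124-5p, and between 0 and 3 members had an unadjusted p under 0.05. With each mouse left out, the difference between PND and CON in the log2 arm ratio lay between -0.16 and -0.08 for miR-124 and between -0.14 and -0.02 for miR-9, and that in the log2 ratio of miR-9-5p to miR-124-3p lay between -0.27 and -0.08.

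Over all entries, the 61 with an unadjusted p under 0.05 became 5 of 361 with a minimum mean of 10 CPM, 28 with DESeq2 and 31 to 91 without each mouse. The 5 with an adjusted p under 0.05 became 0 with that minimum, without trend and with the block, and 0 to 3 without each mouse. Of the arm ratios, 4 had an unadjusted p under 0.05, against 8 with the block and 1 to 14 without each mouse.

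The labels number the mice of both groups 1 to 3. Same-numbered libraries had correlations of -0.13, 0.12 and 0.51 in their deviations from the group means over 361 miRNAs. The highest correlation between different numbers was that of PND mouse 1 with CON mouse 2 (0.50). With 3 mice per group these values cannot tell whether same-numbered mice were handled together, which no source used here states. Fitted with the mouse number as a replicate block, the log2 change of miR-124-5p stayed at 0.37 (standard error 0.18, limma, adjusted p = 0.746), and no member was called. With 3 mice per group the standard errors of 0.11 to 0.17 limit what could be seen, not the number of reads.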
